A study of Mus musculus with 9 samples.

Results

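Retinal mRNA was compared between mice under cold white light-emitting diodes (LEDs) at 7378K and mice under warm ones at 2954K, where the number is the correlated colour temperature of the lamp. The comparison set all 3 arrays of the 7378K group against all 3 of the 2954K group, 6 of the 9 arrays of the series, and the 3 arrays of control mice kept in a dark environment entered the same model. Each of 18193 genes was represented by 1 probe set, the one with a single gene symbol and the highest mean over the 9 arrays, and 12761 of these genes passed a filter on dim signals.

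The mice were female BALB/c (Babl/c in the labels), an albino strain, aged 10 weeks. Both LED groups received 1000 lx for 14 days, with the lamps on for 12 h and off for 12 h, so that by the labels the groups differed in colour temperature alone. The controls had the same hours, and the labels give no illuminance for them. Each array (Affymetrix Mouse Genome 430 2.0) held a pool of 3 right-eye retinas whose neurosensory layer had been separated from the pigment epithelium, so n = 3 pools per group and the spread between animals within a pool was not seen. The emission spectra of the lamps, the irradiance at the eye and the hour of dissection were not given in the sources used here.

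A white LED of high colour temperature emits a larger share of its light at short, blue wavelengths than one of low colour temperature at equal illuminance. Illuminance is weighted by the spectral sensitivity of human cones, so lamps of equal lux need not stimulate the rods, the short-wave and middle-wave cones and the melanopsin ganglion cells of a mouse equally. Bright light over days stresses photoreceptors, above all in albino eyes, where no pigment screens them. The stressed retina is known for Müller glia that switch on Gfap, Stat3 signalling and trophic factors, for photoreceptors that make endothelin-2, and for microglia that take up debris and make complement C1q.

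The spread between pools differed between the LED groups, and it touches every result that follows. The median standard deviation over genes was 0.229 on the log2 scale in the 2954K group, 0.129 in the 7378K group and 0.151 in the controls, and 9273 of 12761 genes (72.7%) varied more between the 2954K pools than between the 7378K pools. Across genes, the correlation of 2 arrays was 0.96 within the 2954K group, 0.975 to 0.977 within the 7378K group and 0.962 to 0.974 between them. A measure of RNA and labelling quality, the log2 signal at the 3' end less that at the 5' end (mean of Gapdh and beta-actin), was 2.78, 0.21 and 1.05 on the 2954K arrays and 1.80, 1.67 and 1.55 on the 7378K arrays, against 0.20 to 0.43 in the controls. The array 2954K 1 was thus the highest and 2954K 2 as low as a control, and the LED groups overlapped (difference of means 0.33, exact two-sided permutation p = 0.7, adjusted p = 0.84 over 6 array measures, smallest possible p = 0.1). Rpe65, an enzyme of the pigment epithelium, gave signals of 9.73 to 11.83 over the 9 arrays, so that the pigment epithelium was not fully removed by this measure.

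No gene was called changed between the 2 colour temperatures. The lowest adjusted p was 0.978 (limma, Benjamini-Hochberg over 12761 genes), and 0 genes were below 0.05. At an unadjusted p under 0.05 there were 519 genes (4.07%), of which 320 were higher and 199 lower under 7378K, where 638 would be expected with no difference anywhere. This count rested on 2954K 1: without that array it was 1991 (15.6%), and with array weights it was 1332 (10.4%), both above the number expected. At an unadjusted p under 0.001 there were 6 genes against 12.8 expected. The arrays of the LED groups did not overlap for 1092 genes (8.56%), 673 of them higher and 419 lower (3.28%) under 7378K. Full separation of 3 arrays from 3 has an exact two-sided permutation p of 0.1, so this share is no excess over no difference anywhere. A lack of overlap in a gene named below is therefore a description only. The median difference, 7378K minus 2954K, was 0.03, the median size of a difference was 0.12, and 95% of genes lay between -0.49 and 0.53. Of all genes, 7191 (56.4%) were higher under 7378K and 5570 were lower.

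The genes with the smallest unadjusted p are given as values, since none passed the test. Tnfaip3, which encodes A20, a brake on NF-kappaB signalling, had the smallest. Its log2 signal was 12.06, 11.78 and 11.96 on the 2954K arrays and 11.27, 11.20 and 11.38 on the 7378K arrays, against 11.98, 12.24 and 12.27 in the controls. The 7378K arrays lay below all others, with a difference of -0.65 (standard error 0.11, 95% interval -0.89 to -0.41, adjusted p = 0.978 by limma). The other probe set of Tnfaip3 gave -0.80. Fam3c, which encodes a secreted protein, had 12.32, 12.48 and 12.24 under 2954K and 11.93, 12.00 and 11.89 under 7378K, a difference of -0.41 (-0.61 to -0.21). All 6 LED arrays lay below the controls, which were at 13.02 to 13.12, and Fam3c fell under both lights together (-0.92, adjusted p = 3.76e-05). Cc2d2a, a component of the transition zone at the base of the cilium, had 10.10, 10.19 and 9.86 under 2954K and 9.56, 9.67 and 9.57 under 7378K (difference -0.45, -0.70 to -0.21). Its 7378K arrays were the lowest and its control arrays, at 10.39 to 10.44, the highest. The other low genes were Map7, which encodes a microtubule-associated protein (-0.46), Mylip, an E3 ubiquitin ligase that lowers the LDL receptor (-0.38), and Utp25 (-0.71), whose other probe set pointed the opposite way (0.31).

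Among the genes with the smallest p that were higher under 7378K, Prtg (protogenin) also rose under both lights. Its signals were 9.34, 9.41 and 9.83 on the 2954K arrays and 10.24, 10.20 and 10.20 on the 7378K arrays, against 7.93 to 8.16 in the controls. The LED groups did not overlap, and the difference was 0.69 (standard error 0.15, 95% interval 0.37 to 1.01) beside a mean LED response of 1.80. Acot2, a mitochondrial acyl-CoA thioesterase, had 8.02, 7.83 and 8.35 under 2954K and 8.75, 8.80 and 8.98 under 7378K (difference 0.77, 0.40 to 1.15). Its 7378K arrays were above every other array, and the controls (8.05 to 8.11) lay among the 2954K arrays. Rian, a long noncoding RNA of the imprinted Dlk1-Dio3 region, had 8.67, 8.49 and 8.48 under 2954K and 9.15, 9.22 and 9.32 under 7378K (difference 0.68, 0.37 to 0.99). Here the 2954K arrays were the ones apart, below the controls at 8.99 to 9.35, and the probe sets of Rian disagreed, with differences from -0.35 to 0.68. Pacs1, a sorting adaptor of the trans-Golgi network, differed by 0.57, Emd, the nuclear envelope protein emerin, by 0.60, and Ttc7b by 0.40.

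**Figure D1:**
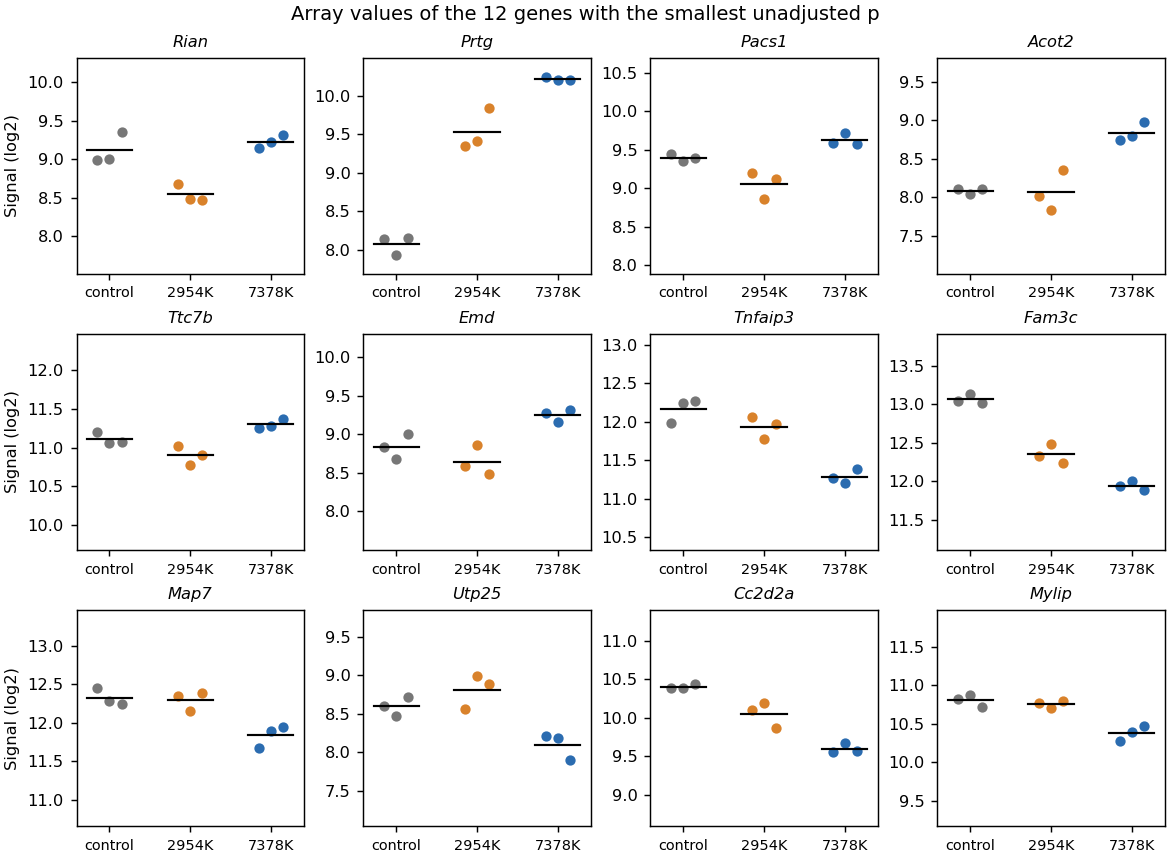
Log2 signal (vertical axis, 2.8 log2 units in every panel) of each array in the control, 2954K and 7378K groups for the 12 genes with the smallest unadjusted p, 6 higher and 6 lower under 7378K; each point is 1 pool of 3 retinas. The LED groups are separate in each panel, as the choice of genes implies, and no gene passed the adjusted threshold.

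The intervals set how large an effect of colour temperature these arrays leave room for. For the median gene the 95% interval reached 0.35 to either side of the difference (5th to 95th percentile of this half-width 0.21 to 0.98). The bound, which is the end of the interval farther from 0, was 0.49 for the median gene, a 1.41-fold difference in either direction, and 1.10 (2.15-fold) at the 90th percentile. The interval lay within a 2-fold difference (a log2 difference of 1) for 11095 genes (86.9%) and within 1.41-fold (0.5) for 6531 genes (51.2%). A gene was called bounded within 2-fold where both one-sided limma tests, against -1 and against 1, passed at an adjusted p under 0.05. This held for 11555 genes (90.5%), and for 6590 genes (51.6%) with 0.5 in place of 1. With intervals widened to hold for all 12761 genes at once, the median half-width was 1.30, 2123 intervals (16.6%) lay within 1 and 9191 (72%) within 2, and 0 excluded 0.

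How tight a bound was followed the signal. Of genes with a mean signal from the filter value of 5.91 up to 7, 45% were bounded within 2-fold, with a median half-width of 0.88. The share was 92.1% from 7 to 9, 99.1% from 9 to 11, 99.8% from 11 to 13 and 99.7% at 13 and over, where the half-width was 0.25. Among the tightest were Ppp2ca, a catalytic subunit of protein phosphatase 2A, with a difference of 0.00 (-0.17 to 0.17), Kidins220, a neurotrophin receptor scaffold (-0.01, -0.19 to 0.16; -1.06 to 0.25 over its probe sets), and Mab21l1, a gene of eye development (0.01, -0.16 to 0.19). Mab21l1 rose under both lights together by 0.31 (adjusted p = 0.026 by limma), and its bound of 0.19 between the lamps was smaller than that response. The other probe set of Mab21l1 differed by -0.25, outside the interval given. The widest intervals belonged to lens crystallins, such as Crygs, with a difference of -2.22 (-8.98 to 4.53) and a 7378K mean below the filter value. There were 1206 genes left unbounded. In all, 112 genes (0.878%) differed by 1 or more, 88 of them had a mean signal below 7, and 31 had both LED means past the filter. The interval of 1 gene, Dcn, lay wholly beyond a 2-fold difference, and it is described with the tissue markers.

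**Figure D2:**
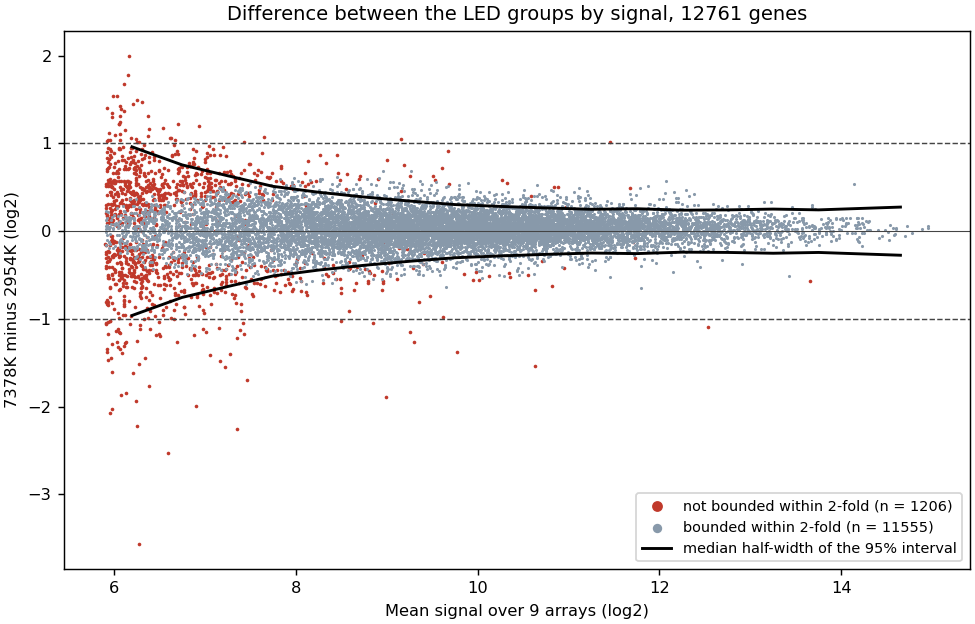
Difference between the LED groups (7378K minus 2954K, log2) against the mean signal over the 9 arrays (log2) for 12761 genes; grey points are the 11555 genes bounded within 2-fold, red points the 1206 that are not, dashed lines mark 2-fold and black lines the median half-width of the 95% interval. The interval narrows from 0.88 among the dimmest genes to 0.25 above a signal of 11, and the unbounded genes gather at the dim end.

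The genes that differ between the LED groups and the controls give a scale for these bounds. Set against the controls, the mean of both LED groups differed for 441 genes (3.46%), of which 307 rose (2.41%) and 134 fell (1.05%). With each array centred on its median, 352 differed and 81.5% of them rose, against 69.6% here. The count was 164 to 1847 when 1 array was left out (without control 2 and without 2954K 2). The 3' minus 5' difference was also above all controls on every LED array but 2954K 2. With that measure as a covariate 153 genes differed, and with that of the dap spike-in 131. The part of RNA quality in the LED response was not tested beyond these values. Taken singly against the controls, 156 genes (1.22%) differed under 2954K and 449 (3.52%) under 7378K. These comparisons share the controls, and a difference between their counts is no test of a difference between the lamps. For 286 of the 307 that rose and 116 of the 134 that fell, the bound on the difference between the lamps was smaller than the gene's own LED response, and for 84 and 6 it was below 50% of it. In the median, the bound was 64.6% of the LED response among genes that rose and 76.9% among genes that fell. Of the genes that rose, 287 (93.5%) were bounded within 2-fold, and of those that fell, 132 (98.5%), beside 90.5% of all genes. A difference between the lamps as large as the LED response was thus outside the gene's own 95% interval for most of these genes. One of 50% of that response was inside it for most. The genes were kept for an LED response that was large beside the same estimate of spread that sets these intervals. The shares with a bound below the response therefore follow largely from that choice, and they are no separate bound on colour temperature.

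The LED-responsive genes were mostly farther from the controls under 7378K than under 2954K, by small amounts. Among the 307 that rose, the median difference was 0.14, beside 0.03 over all genes, and 249 (81.1%) were higher under 7378K, beside 56.4% of all genes. Their median rise was 0.75 under 2954K and 0.85 under 7378K. Among the 134 that fell the median difference was -0.13, and 119 were lower under 7378K, beside 43.6% of all genes. Their median fall was -0.51 under 2954K and -0.67 under 7378K. At an unadjusted p under 0.05, 32 of the genes that rose were higher under 7378K and 0 lower (2.51% and 1.56% of all genes). Of the genes that fell, 20 were lower and 0 higher. None of them was called between the lights. These genes were chosen on the same arrays and share the same 6 LED pools, so the shares are a description with no test. In a bulk sample, fewer cells of a type and less RNA per cell cannot be told apart.

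Array by array, the mean deviation from the control mean over the genes that rose was 1.004, 0.88 and 1.08 on the 2954K arrays and 1.16, 1.12 and 1.11 on the 7378K arrays. Over the genes that fell it was -0.75, -0.39 and -0.62 on the 2954K arrays and -0.79, -0.73 and -0.75 on the 7378K arrays. All 7378K arrays were beyond all 2954K arrays for the rises, and for the falls 2954K 1 exceeded 2 of the 7378K arrays. The array with the weakest response, 2954K 2, also had the 3' minus 5' difference nearest the controls (0.21). Without 2954K 2 the share of the 307 that was higher under 7378K was 67.1%, beside 52.6% of all genes, and the share of the 134 that was lower was 69.4%. With the Gapdh and beta-actin measure as a covariate the shares were 77.9% and 82.1%, beside 55.1% of all genes higher. With that of the dap spike-in in its place, added after seeing the data, they were 65.8% and 59.7%, beside 51.1%. With the mean of all probe sets of a gene, 65.9% of the risers were higher, beside 48.3% of all genes. The part of RNA quality in the difference was not tested beyond these values.

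**Figure D3:**
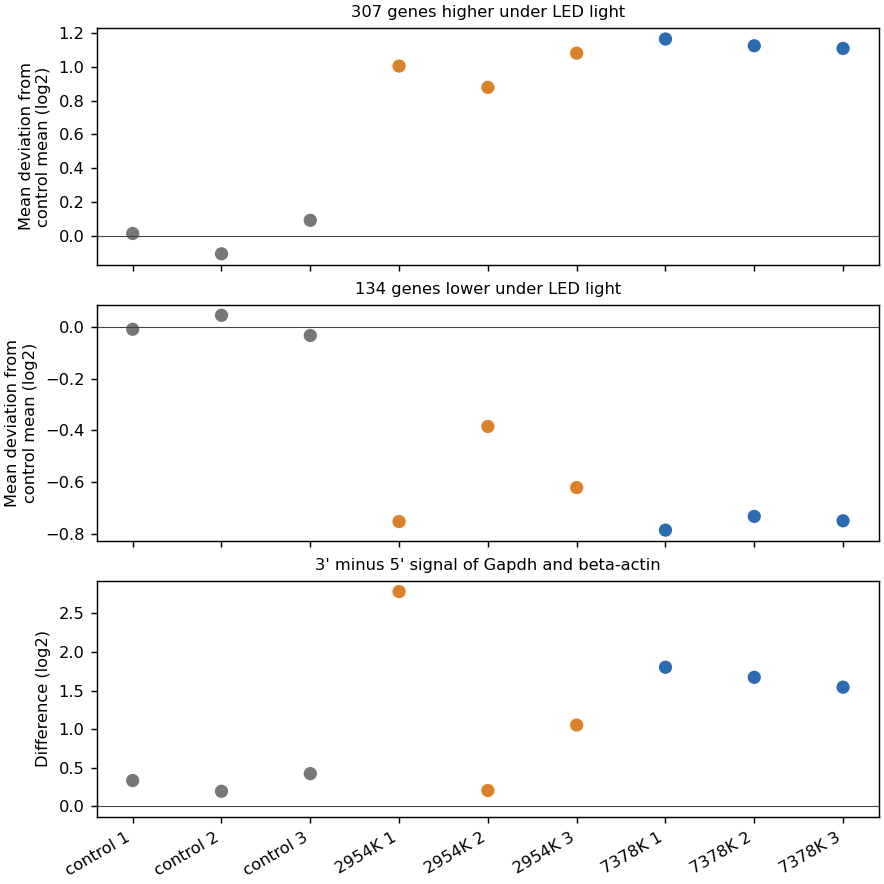
For each of the 9 arrays, the mean log2 deviation from the control mean of the 307 genes that rose and the 134 that fell under LED light, and the 3' minus 5' log2 difference of Gapdh and beta-actin; 1 point is 1 pool. The 7378K arrays sit at 1.11 to 1.16 and the 2954K arrays at 0.88 to 1.08 for the rises, and the 2954K arrays also spread from 0.21 to 2.78 in the 3' minus 5' difference.

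Edn2 and Cebpd had among the largest LED responses, rose under each lamp and were not called between them. Edn2, which encodes endothelin-2, had log2 signals of 12.60, 12.68 and 12.96 on the 2954K arrays and 13.30, 13.20 and 12.90 on the 7378K arrays, against 6.53 to 8.18 in the controls. The LED groups overlapped, and the difference was 0.39 (standard error 0.32, 95% interval -0.30 to 1.08) beside an LED response of 5.43. The standard deviation of Edn2 was 0.87 in the controls, 0.19 under 2954K and 0.21 under 7378K, and the interval uses 1 estimate from all groups. A difference between the lamps of more than 19.8% of the log2 response lay outside that interval. Cebpd, an acute-phase transcription factor, had 11.80, 11.64 and 12.39 under 2954K and 12.13, 12.22 and 11.89 under 7378K, a difference of 0.14 (-0.29 to 0.57) beside a response of 4.05. Its 7378K arrays lay inside the range of the 2954K arrays.

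Of 4 other responders, Fgf2os, Socs3 and Stat3 had all 7378K arrays above the 2954K arrays and a 95% interval that excluded 0 before adjustment, and Nudt6 had neither. Fgf2os, transcribed opposite the trophic factor Fgf2, had 9.97, 10.40 and 10.67 under 2954K and 10.77, 10.87 and 10.98 under 7378K (difference 0.53, 0.14 to 0.91, response 4.27). The groups did not overlap. Nudt6, a gene antisense to Fgf2, differed by 0.23 (-0.08 to 0.53, response 2.76), its LED groups overlapped, and probe sets of neighbouring antisense transcripts may share signal. Socs3, the feedback inhibitor of cytokine signalling through Stat3, had 10.73, 9.97 and 10.53 under 2954K and 11.14, 11.17 and 10.82 under 7378K (difference 0.63, 0.18 to 1.08, response 3.65), and all 7378K arrays were higher. Its other probe sets gave as little as 0.38. Stat3 itself had 11.39, 11.24 and 11.45 under 2954K and 11.65, 11.73 and 11.54 under 7378K (difference 0.28, 0.07 to 0.49, response 1.68). The groups did not overlap on this probe set, while the probe sets of Stat3 ranged from -0.21 to 0.63.

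Bcl3, a nuclear partner of NF-kappaB, had a control mean of 2.71, below the filter value, so that its LED response is given as at least 3.24, the LED mean less the filter value. It gave 8.46, 8.59 and 9.13 under 2954K and 9.34, 9.77 and 9.56 under 7378K, a difference of 0.83 (-0.50 to 2.15) that was not bounded within 2-fold. The 3 controls ranged from 1.69 to 4.59, and all 9 arrays share 1 estimate of the spread. The remaining genes of this set were the collagen-processing enhancer Pcolce (difference 0.40, -0.47 to 1.26), the interferon-induced Bst2 (0.11, -1.002 to 1.22), the reactive-glia protease inhibitor Serpina3n (0.06, -0.85 to 0.97), Lrrc2 (0.08, -0.24 to 0.40), the lysozyme gene Lyz1 (0.43, -0.21 to 1.07) and the cytokine Lif (0.42, -0.87 to 1.71). Of these, Bst2 and Lif had control means below the filter value, and their LED responses were at least 2.20 and 1.23. All 7378K arrays of Pcolce were above its 2954K arrays, and the LED groups of the others overlapped. For Pcolce, Bst2, Serpina3n, Lyz1 and Lif the controls spread more than either LED group, which widens the intervals.

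Among the genes that fell most under LED light, Glb1l3, a beta-galactosidase-like gene, showed the largest difference between the lamps. Its signals were 8.97, 10.16 and 9.31 on the 2954K arrays and 8.79, 8.22 and 8.49 on the 7378K arrays, against 10.77 to 11.01 in the controls. The 7378K arrays were all below the 2954K arrays, and 2954K 2 stood nearest the controls. The difference was -0.98 (standard error 0.25, 95% interval -1.53 to -0.44, adjusted p = 0.978), and it was -0.64 to -1.23 over the alternatives run. Prss56, a protease of Müller glia known for its part in eye growth, fell to 4.74, 5.71 and 5.96 under 2954K and to 4.53, 5.64 and 5.998 under 7378K, from 8.37 to 8.63 in the controls, with LED means below the filter value, so that its fall was at least 2.55 on the log2 scale. The LED groups covered nearly the same range (difference -0.08, -1.04 to 0.88). The imprinted gene Nnat (-0.01, -0.76 to 0.75), Dleu7 (-0.38, -0.95 to 0.20), the mitochondrial carrier Slc25a25 (-0.27, -1.004 to 0.47) and the nucleoside transporter Slc29a1 (-0.32, -1.02 to 0.38) completed the set.

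**Figure D4:**
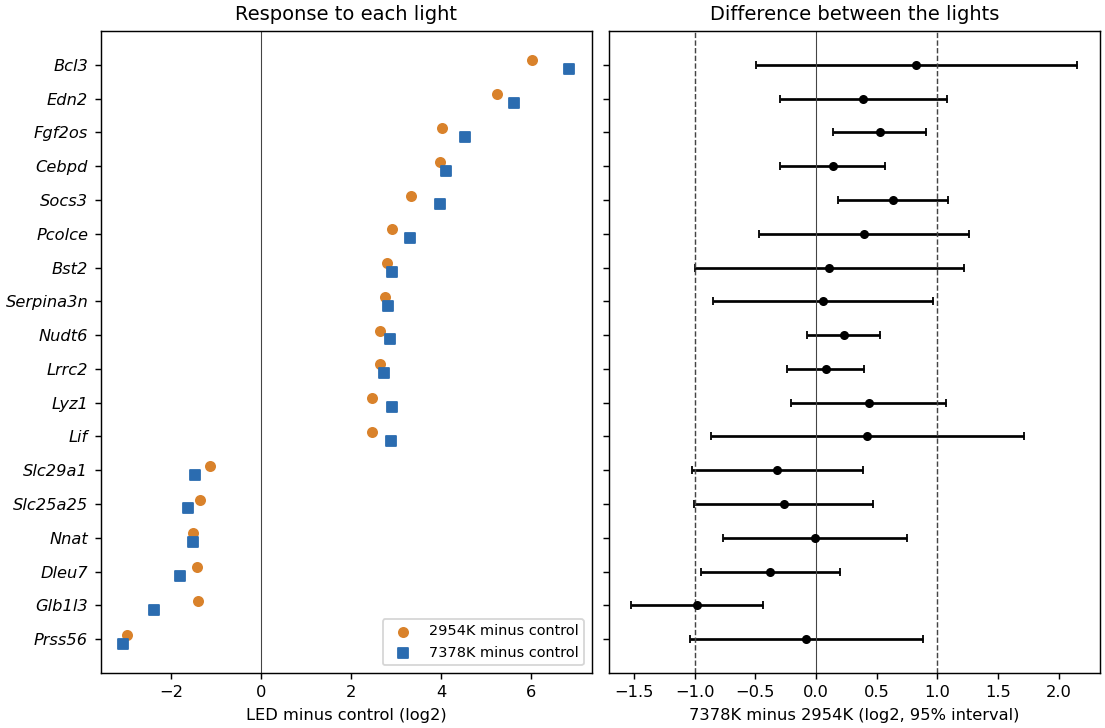
Left, log2 difference from the control mean under 2954K (circles) and 7378K (squares) for the 12 genes with the largest rise and the 6 with the largest fall under LED light; right, the difference between the lamps (7378K minus 2954K, log2) with its 95% interval, and dashed lines at a 2-fold difference. The control means of Bcl3, Bst2 and Lif and the LED means of Prss56 lie below the filter value, so that the left-hand points of these genes have no exact size. On the right, the differences run from -0.98 (Glb1l3) to 0.83 (Bcl3).

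The cone opsins, which detect short and middle wavelengths, were bounded within 2-fold, and melanopsin was not. Opn1sw, the short-wave cone opsin, had 13.49, 13.67 and 13.70 on the 2954K arrays and 13.51, 13.63 and 13.57 on the 7378K arrays, against 13.56 to 13.91 in the controls. The 3 groups overlapped, and the difference was -0.05 (-0.28 to 0.18), which bounds it at 1.22-fold. Its mean signal of 13.64 was in the band of 13 and over, near the top of the range, where a change in mRNA can go unseen. Opn1mw, the middle-wave cone opsin, had 10.18, 10.58 and 9.92 under 2954K and 10.47, 10.18 and 10.34 under 7378K, against 10.76 to 10.97 in the controls (difference 0.10, -0.23 to 0.44). It fell under both lamps together (-0.56, adjusted p = 0.0409), with every LED array below every control. Opn4, melanopsin of the intrinsically photosensitive ganglion cells, had 7.43, 7.15 and 6.08 under 2954K and 7.16, 5.66 and 7.26 under 7378K (difference -0.19, -1.20 to 0.82). Its other probe set gave 0.41. The arrays spread over more than 1 log2 unit within each LED group, and a 2-fold difference was inside the interval. Opn3, encephalopsin, differed by -0.12 (-0.93 to 0.69). Of the 9 tested genes for opsins and non-visual light sensing, 6 were bounded within 2-fold, and Opn4, Adcyap1, the neuropeptide PACAP of the same ganglion cells, and the pigment epithelium opsin Rgr were not.

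The genes of phototransduction lay close together under the lamps. Of 30 tested rod genes, 29 were bounded within 2-fold, and 7 were higher and 23 lower under 7378K, beside 43.6% of all genes lower. Of the 23, 2 had an unadjusted p under 0.05 by limma, beside 1.56% of all genes. The median difference was -0.08 beside 0.03 over all genes (-0.14 to -0.02 over the alternatives run). Gnat1, rod transducin alpha, differed by 0.06 (-0.27 to 0.39) and Sag, rod arrestin, by 0.03 (-0.30 to 0.36). Both were near the top of the signal range, where a change in mRNA can go unseen. Prph2, the disc-rim protein peripherin-2, had 13.52, 13.09 and 13.89 under 2954K and 12.87, 13.15 and 12.94 under 7378K, against 13.60 to 13.90 in the controls (difference -0.52, -0.89 to -0.14). The groups overlapped through 2954K 2. Cngb1, the beta subunit of the rod light-gated channel, had 11.78, 12.08 and 12.05 under 2954K and 11.61, 11.68 and 11.54 under 7378K (difference -0.36, -0.62 to -0.10), with no overlap. Against the controls Cngb1 fell under both lamps together (-0.53, adjusted p = 0.0145). The rod gene left unbounded was Grk1, the kinase that shuts off the activated visual pigment (-0.86, -1.77 to 0.05).

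Cone genes gave a median difference of -0.02 over 14 tested genes, 13 of them bounded. Gnb3, a transducin beta subunit of cones and ON bipolar cells, rose under both lamps, from 12.62 to 12.85 in the controls to 13.54, 13.74 and 13.79 under 2954K and 13.72, 13.77 and 13.72 under 7378K. The difference between the lamps was 0.05 (-0.17 to 0.26), at most 26.1% of the LED response of 1.001. Gnat2, cone transducin alpha, differed by -0.04 (-0.22 to 0.15), and Arr3, cone arrestin, by -0.19 (-0.73 to 0.36), with 2954K 2 at 12.21 and all other LED arrays from 11.03 to 11.33. Of 19 ribbon synapse genes all were bounded and 16 were higher under 7378K, beside 56.4% of all genes. Their median of 0.06 ranged from -0.06 to 0.15 over the alternatives run. Cacna1f, the calcium channel of the photoreceptor terminal, had 11.58, 11.60 and 11.57 under 2954K and 11.74, 11.75 and 11.70 under 7378K. The groups did not overlap, and the interval of the difference of 0.15 ran from -0.03 to 0.32.

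The visual cycle, which regenerates the chromophore partly in the pigment epithelium, had 12 of 14 genes lower under 7378K, beside 43.6% of all genes. Of the 14, 9 were bounded. Rdh11, a retinol dehydrogenase, had 8.92, 9.96 and 9.58 under 2954K and 9.02, 8.98 and 8.96 under 7378K (difference -0.50, -0.97 to -0.02). The groups overlapped through 2954K 1. Rlbp1, the retinaldehyde-binding protein of Müller glia and pigment epithelium, differed by -0.08 (-0.34 to 0.18), and Rpe65 by -0.67 (-1.88 to 0.55). Rpe65, Lrat, Rdh5, Rgr and Stra6, all expressed in the pigment epithelium, were the members left unbounded.

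Most clock genes were bounded within 2-fold. So were 92.1% of all genes with a signal of 7 to 9, 99.1% from 9 to 11 and 99.8% from 11 to 13. The list was not confined to 1 band, with mean signals such as 8.39 for Nr1d1 and 12.65 for Dbp. Of 21 tested clock genes 20 were bounded, and the median difference was 0.01. Under LED light against the controls 0 of them were called, beside 3.46% of all genes, a share at which 0 of 21 is no unusual count. Per1 and Per2, core repressors of the clock, differed by 0.08 (-0.30 to 0.47) and -0.22 (-0.57 to 0.14). Dbp, an output gene of the clock with a large daily swing, differed by 0.01 (-0.23 to 0.25) and Nr1d1 by -0.10 (-0.55 to 0.36). Members at an unadjusted p under 0.05 were Per3, with 10.29, 10.10 and 9.75 under 2954K and 10.41, 10.42 and 10.32 under 7378K (difference 0.33, 0.03 to 0.64), and Clock, with 10.75, 10.93 and 10.85 against 11.15, 11.03 and 11.06 (0.23, 0.01 to 0.45). Both had all 7378K arrays above the 2954K arrays on these probe sets, while other probe sets went the opposite way (-0.18 to 0.46 for Per3 and -0.18 to 0.23 for Clock). Bhlhe41, a repressor of the clock, was left unbounded. In the dopamine and melatonin list, 6 of 9 genes were bounded. Th, the rate-limiting enzyme of dopamine synthesis, differed by 0.31 (-0.32 to 0.93). Aanat, the melatonin enzyme, was dim and had 2.11 on 7378K 3 but 6.65 and 7.06 on the others, so its interval of -3.66 to 0.91 bounds little.

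Many glial and microglial genes rose under LED light, and none was called between the lamps. In the astrocyte and reactive glia list, 14 of 22 tested genes rose under LED light, beside 2.41% of all genes, with a list median of 1.37. Between the lamps 19 of 22 were higher under 7378K, 3 of them at an unadjusted p under 0.05 (Fgf2os, Socs3 and Stat3), beside 56.4% and 2.51% of all genes, and the median difference was 0.25 (0.11 to 0.42 over the alternatives run). Of the 307 genes that rose under LED light, 81.1% were higher under 7378K, 32 of them at such a p, with a median difference of 0.14. The direction was thus shared by LED risers at large and was not particular to this list. Of the 22, 15 were bounded within 2-fold, and Bcl3, Gfap, Lcn2, Lif, Socs3, Steap4 and Timp1 were not. Gfap, the filament protein of reactive glia, had 7.85, 7.69 and 7.75 under 2954K and 8.27, 8.48 and 8.08 under 7378K, against 6.15 to 7.25 in the controls. The LED groups did not overlap, the difference was 0.51 (-0.08 to 1.10), and the probe sets of Gfap ranged from -0.03 to 0.59. The bound for Gfap was 88.6% of its LED response of 1.25. All 20 Müller glia genes were bounded, among them Glul, glutamine synthetase (0.07, -0.19 to 0.32), and the median was 0.03.

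Of 19 microglia and macrophage genes 13 rose under LED light, beside 2.41% of all genes, and 10 were higher and 9 lower under 7378K than under 2954K, beside 56.4% of all genes higher. This list too was chosen with earlier results of these data known. C1qa, a chain of complement C1q, had 9.43, 10.27 and 9.99 on the 2954K arrays and 10.02, 9.92 and 9.95 on the 7378K arrays, against 7.07 to 7.96 in the controls. The 7378K arrays lay inside the 2954K range, and the difference of 0.07 (-0.45 to 0.59) was at most 24.9% of the response of 2.35. C1qb differed by 0.23 (-0.27 to 0.72) beside a response of 2.25. Aif1, which encodes the microglial protein Iba1, differed by -0.21 (-0.98 to 0.56), and Ctss, the lysosomal protease cathepsin S, by 0.29 (-0.01 to 0.60). Ly86, which encodes MD-1, a receptor partner on immune cells, had 9.29, 9.10 and 8.84 under 2954K and 9.80, 9.69 and 9.20 under 7378K. It had the smallest p of the list (difference 0.49, 0.08 to 0.89), with an overlap between 7378K 3 and the 2954K arrays.

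In the list of chemokines, cytokines and adhesion genes 12 of 15 were higher under 7378K, beside 56.4% of all genes, and 9 were bounded. The median of 0.27 ranged from 0.02 to 0.43 over the alternatives run. Ccl4, a chemokine, had 6.93, 6.91 and 6.89 under 2954K and 7.498, 7.51 and 7.22 under 7378K (difference 0.50, -0.06 to 1.06), while its controls covered 6.79 to 7.57. Ccl12, a monocyte chemokine, had 6.11, 6.81 and 6.84 under 2954K and 7.70, 7.53 and 6.77 under 7378K, from 4.62 to 5.27 in the controls, below the filter value (difference 0.75, -0.11 to 1.61). The groups overlapped, and Ccl12 was not bounded. Interferon and antigen presentation genes gave a median of -0.02 over 25 genes, 18 of them bounded.

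Stress and metabolic lists differed in how many genes were bounded, beside 90.5% of all genes. The share follows the signal (99.1% to 99.8% of genes in the bands from 9 up), and the lists were not matched for signal. All 28 unfolded protein response genes, all 19 glycolysis genes and all 30 respiratory chain genes were bounded within 2-fold, with medians of 0.08, 0.01 and 0.01. The mean signals of these lists lay in those bands on every array. The metal-binding Mt1, which rose under both lamps (1.35), differed by -0.01 (-0.44 to 0.42), and Mt2 by 0.16 (-0.24 to 0.56). Hmox1, haem oxygenase 1, had a control mean below the filter value and differed by -0.01 (-0.93 to 0.91). Vegfa differed by 0.00, with an interval that bounds it at 1.17-fold. Of 12 heat shock genes 10 were bounded, with a median of 0.03.

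Cholesterol synthesis genes were mostly lower under 7378K. Of 19 tested genes 16 were lower, beside 43.6% of all genes, 4 of them at an unadjusted p under 0.05, beside 1.56%, and 0 were called, with a median difference of -0.20 and 17 bounded. Over the alternatives run the median ranged from -0.29 to -0.10. Idi1, an isomerase of the isoprenoid pathway, had 10.90, 10.86 and 10.93 under 2954K and 10.37, 10.56 and 10.27 under 7378K, against 10.41 to 10.84 in the controls. Its LED groups lay on either side of the control mean, with a difference of -0.49 (standard error 0.13, 95% interval -0.77 to -0.22, adjusted p = 0.978). Srebf1, a transcription factor of lipid synthesis, differed by -0.32 (-0.59 to -0.04) and Mvd, mevalonate decarboxylase, by -0.60 (-1.16 to -0.04).

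Immediate early genes, which neurons switch on within minutes of activity, were bounded in 17 of 23 cases. Egr1 had the largest difference of the list. Its signals were 11.26, 10.43 and 11.21 under 2954K and 12.37, 11.98 and 11.58 under 7378K, against 11.09 to 11.79 in the controls. The LED groups did not overlap and fell on opposite sides of the control mean, 1 of 136 such genes (1.07%). The difference was 1.01 (standard error 0.25, 95% interval 0.47 to 1.56, adjusted p = 0.978). Nr4a2 differed by 0.30 (-0.02 to 0.63; -0.17 to 0.61 over its probe sets), Egr1, Egr3, Egr4, Fosb, Maff and Npas4 were left unbounded, and the time between lamp and dissection, on which such genes depend, was not given in the sources used here.

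The remaining neuronal lists were close to 0. Of 18 bipolar cell genes 15 were bounded, with a median of -0.05, and of 17 amacrine and horizontal cell genes 15 were bounded, with a median of 0.10. Retinal ganglion cell genes were bounded in 17 of 18 cases, Opn4 being the exception, with a median of 0.03. Among neurotrophic factors and receptors 18 of 21 were bounded, and the fibroblast growth factor receptor gene Fgfr2 was not, with 7.29, 8.03 and 7.43 under 2954K and 6.94, 4.65 and 6.93 under 7378K (difference -1.41, -2.84 to 0.02). Its lowest array, 7378K 2, stood apart from the other 5 LED arrays.

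Of 17 genes of apoptosis and cell death, 15 were bounded and 12 were higher under 7378K, beside 56.4% of all genes. Their median was 0.07 (-0.20 to 0.23 over the alternatives run). Bbc3, which encodes the cell death activator Puma, had 6.97, 6.47 and 6.43 under 2954K and 7.61, 7.28 and 6.97 under 7378K (difference 0.66, 0.02 to 1.30). Its groups met at the highest 2954K and the lowest 7378K array. Antioxidant and metal stress genes were bounded in 23 of 25 cases with a median of -0.05. The complement list had 5 of 7 tested genes bounded, and the C1q chain gene C1qc and Serping1, a C1 inhibitor, were not.

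**Figure D5:**
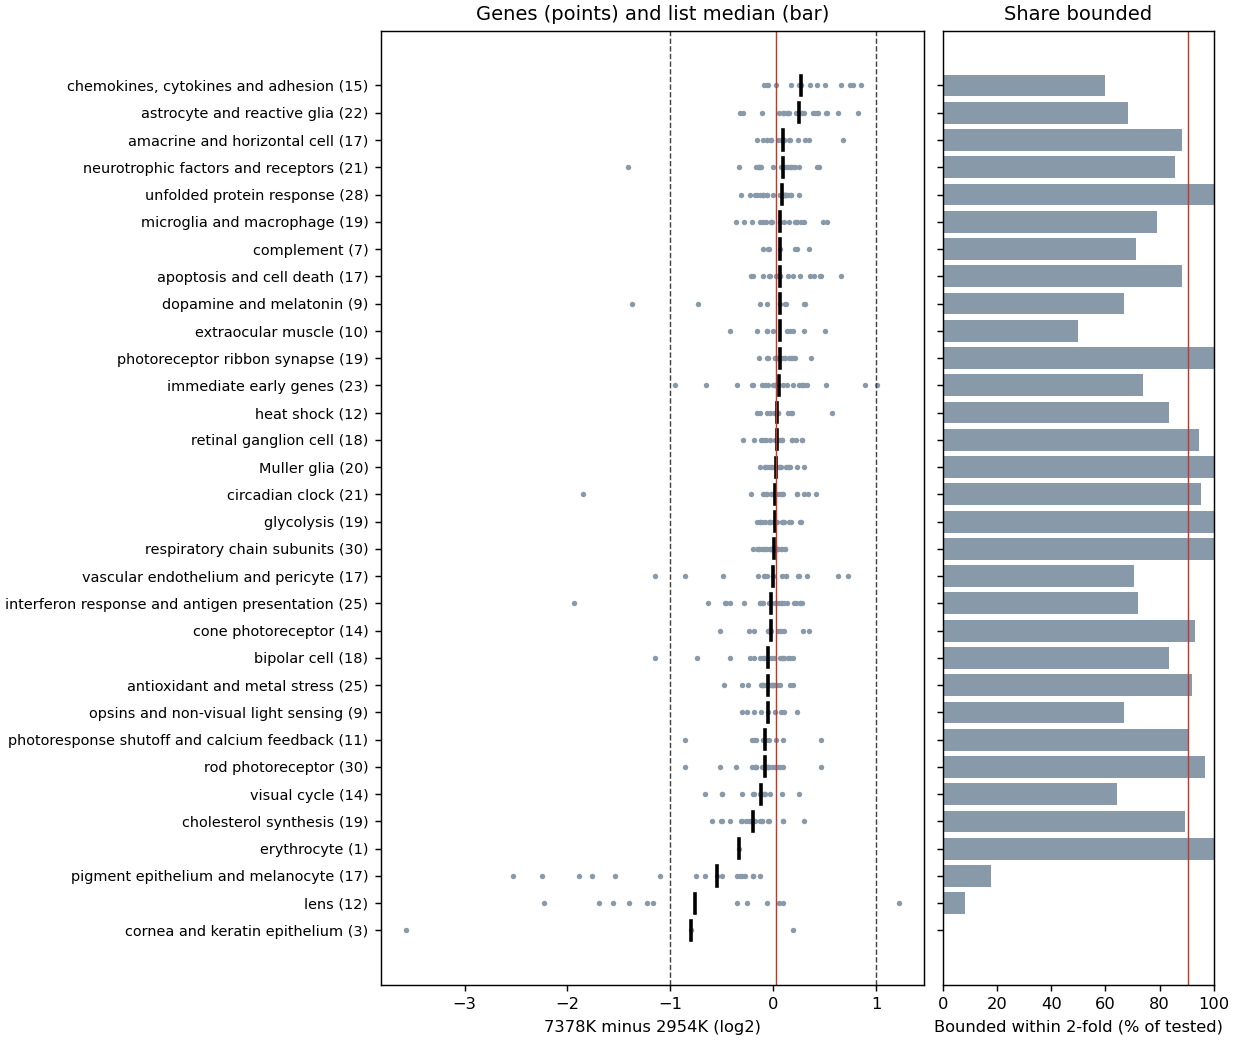
Left, the difference between the lamps (7378K minus 2954K, log2) of each tested gene in the gene lists (points; number tested in brackets) with the list median (bar), a red line at the median of all genes and dashed lines at 2-fold; right, the percent of each list's tested genes bounded within 2-fold, with a red line at the 90.5% of all genes. The rod, Müller glia, ribbon synapse, glycolysis, respiratory chain and clock lists have medians between -0.08 and 0.06 and at least 95% of their genes bounded, and the pigment epithelium and lens lists are spread wide. The share bounded follows the signal, and the lists are not matched for it.

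Markers of tissue next to the retina had the largest and least certain differences. All 17 tested pigment epithelium and melanocyte genes were lower under 7378K, beside 43.6% of all genes, with a median of -0.55, and 3 were bounded within 2-fold. The mean log2 signal over the 18 markers on the array was 9.18, 8.64 and 9.41 on the 2954K arrays and 7.79, 8.09 and 8.94 on the 7378K arrays, against 7.78, 7.79 and 9.51 in the controls. The LED groups overlapped, and the difference of -0.80 had an exact two-sided permutation p of 0.2 (adjusted p = 0.75 over 6 array measures). Tyrp1, a melanin synthesis enzyme, had 9.64, 8.79 and 12.15 under 2954K and 7.49, 8.02 and 9.41 under 7378K, with 10.40 on control 3 (difference -1.89, -3.81 to 0.03). Mlana, a melanosome protein, had 8.44, 5.16 and 10.56 under 2954K and 5.19, 4.73 and 6.67 under 7378K (-2.52, -5.21 to 0.16), with a 7378K mean below the filter value. In each group the third array was the highest for both genes.

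Lens and connective tissue genes also varied widely. Of vascular genes 12 of 17 were bounded, of eye muscle genes 5 of 10, of erythrocyte genes the 1 tested, and of cornea and keratin genes 0 of 3. The mean over the lens list was 4.38, 4.51 and 8.98 on the 2954K arrays and 4.30, 4.07 and 7.26 on the 7378K arrays, with 11.59 on control 3, and 1 of 12 tested lens genes was bounded. Dcn, which encodes decorin, a proteoglycan of connective tissue, had 7.35, 6.41 and 9.73 under 2954K and 5.94, 2.94 and 3.89 under 7378K, against 5.99, 5.64 and 8.61 in the controls. All 7378K arrays were below the 2954K arrays, with a difference of -3.57 (-5.72 to -1.42), and their mean was below the filter value. With that mean set at the filter value the difference was -1.92. Acta2, smooth muscle actin of vessel walls, differed by -1.14 (-2.22 to -0.07), with 2954K 3 at 11.04 and control 3 at 10.33 above the rest. Oas1a, an interferon-induced gene, differed by -1.93 (-3.81 to -0.06) through 7378K 2 and 7378K 3, at 4.002 and 4.89, and its 7378K mean was below the filter value (-1.36 with that mean set at the filter value). The part of tissue carried over in dissection in these differences was not tested. With the third array of each group left out, 0 genes were called and 10866 were bounded.

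The count of 0 called genes depended on 1 array. Without 2954K 1, the array with the largest 3' minus 5' difference, 29 genes were called, 14 higher and 15 lower under 7378K. Leaving out any other single array left 0 called. The 29 had the same direction in the fit to all arrays, 11 of them at an unadjusted p under 0.05 there, and 23 were bounded within 2-fold there. None was among the 12 genes with the smallest p. Hnrnpul1, which encodes an RNA-binding protein, had the smallest adjusted p without that array (0.0178, limma). Its signals were 12.48, 11.59 and 11.31 on the 2954K arrays and 12.38, 12.41 and 12.30 on the 7378K arrays, against 12.04 to 12.11 in the controls, so that 2954K 1 stood with the 7378K arrays. The difference was 0.57 with it and 0.91 without it. Slc17a7, the vesicular glutamate transporter of photoreceptors and bipolar cells, and the synaptic scaffold gene Dlg4 were also higher without that array (0.85 and 0.72), and Tmem237, a ciliary transition zone gene, and the endoplasmic reticulum gene Selenok were lower (-0.97 and -0.66). For all 29 genes 2954K 1 lay on the 7378K side of the other 2954K arrays, and for 21 it lay outside the range of the other 5 LED arrays. When that quality measure entered the model too, 27 genes were called, of which 3 were shared with the 29. With that covariate and all arrays, 0 genes were called and 11541 were bounded.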

How the data were processed

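Retinal RNA of 9 pools of 3 mouse retinas (3 per group) was measured on 9 arrays. The deposited values were log2 signals per probe set, and MAS5 and affy are named, without version or role, per the submitters' processing notes. On the linear scale the 2% trimmed mean was 500 on each array, and no further scaling was applied. Of 45101 probe sets, 34945 had 1 gene symbol by the platform annotation, 932 several, 9160 none and 64 were controls; 34741 matched RefSeq (GRCm38.p6) by gene ID. As dim, 5432 genes were left out whose mean was under 5.91, the 40th percentile over probe sets. A model in limma 3.58.1 (R 4.3.3; lmFit and contrasts.fit, then eBayes with an intensity trend) was fitted to 9 arrays with 1 mean per group and 6 residual degrees of freedom (11.9 after moderation), and the Benjamini-Hochberg adjustment ran over 12761 genes. Changed means an adjusted p under 0.05. All 95% intervals are moderated. LED-responsive genes came from the average of the LED groups set against the controls. The scripts were tested on simulated data.

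The members and lists were chosen with earlier results of these data known. Lists are described by counts and medians, without a test. Named genes were up to 10 called genes per direction or, where there were fewer than 6, the 6 with the smallest p; the 12 largest LED rises and 6 largest falls; a fixed panel; up to 3 genes of smallest p per list; and the 5 narrowest and 5 widest intervals. Genes of the fit without 2954K 1 were named after their values were seen. Replicate numbers were not taken to pair the pools, since the labels give no shared animal or batch and the correlation of deviations between same-numbered 2954K and 7378K arrays was 0.07, 0.06 and 0.15, not above 0.1 in every pair. Same-numbered control arrays gave 0.09, 0.26 and 0.33 with 2954K and 0.07, 0.11 and 0.21 with 7378K. The third arrays were thus the most alike, and whether equal numbers share a batch was not tested. Precision is limited by the number of arrays, and detection calls, scan dates and RNA integrity values were not analysed here. The labels call the arrays biological replicates. Figures were drawn with matplotlib 3.10.9, and data.table (version 1.17.8) read the values. The alternatives are given with the closing observations.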

Additional observations from a re-analysis of the deposited data

Results flagged for a closer look

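For 7 of the genes described, every 7378K array lay on one side of the control mean and every 2954K array on the other, a pattern that 136 of 12761 genes (1.07%) showed, 95 with 7378K above and 41 with 7378K below. The difference of the 2 LED responses is the difference between the lamps itself, and limma called none of them (adjusted p = 0.978). The 7378K minus 2954K difference was 0.68 for Rian, 0.57 for Pacs1, 0.40 for Ttc7b, 1.01 for Egr1 and 0.17 for Celf1, an RNA-binding protein gene with 7378K above the controls in each. It was -0.23 for Atf4, a transcription factor of the integrated stress response, and -0.49 for Idi1, with 7378K below the controls.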

How the results depend on the processing

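The number of genes called between the lamps was 0 in 24 of 25 alternatives and 0 to 29 over fits that left out 1 array each. A further fit, without 2954K 1 and with the 3' minus 5' covariate, called 27. With the replicate number as a block it was 0, with 11597 genes bounded and 622 LED-responsive; each 2954K array correlated best with the 7378K array of its own number, a hint from the data and not the design. The genes bounded within 2-fold numbered 11011 to 11638 without 1 array, and those with an interval within 0.5 were 4233 with the mean of probe sets and 4264 without the third arrays. With each of 27009 probe sets on its own, 0 were called, 21943 (81.2%) were bounded and 20692 had an interval within 1. The share bounded, 90.5% in the fit described above, was 81.3% (9596 of 11796 genes) with the mean of probe sets. Without the filter on dim signals it was 60.9% (11086 of 18193 genes). It rose to 98.7% with the filter at the 60th percentile and to 96.4% with 32 added to each signal. The share bounded thus depended on how probe sets were used and on the filter. Quantile normalisation and median centring gave 0 called genes and 11549 and 11555 bounded ones.

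The count of LED-responsive genes (441) moved most. It was 245 with the mean of probe sets, 153 with the 3' minus 5' covariate, 131 with that of dap, 266 without the intensity trend, 164 without the third arrays, 1941 with array weights and 953 with group weights, and 164 (without control 2) to 1847 (without 2954K 2) without 1 array. The cause was not tested. The dap, group-weight and all-probe-set fits and that further fit were added after seeing the data. Of 154 genes described or read for the lists, 100 kept the direction of their difference in each alternative that gave them a value (22 to 24 per gene; the fit on all probe sets gave none).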
